A study of Mus musculus with 24 samples.

Results

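The genes described here are Ngp, Camp, Ltf, Lcn2, Fcnb, Chil3, Mmp8, S100a8, S100a9 and Retnlg, 10 of the 24982 genes counted, which were chosen by symbol as genes known from the secondary granules and the cytosol of neutrophils. Each had a count in all 24 libraries, and all 10 were among the 12743 genes that passed the filter on low counts. The libraries were made from RNA of eosinophils sorted from the bone marrow of wild-type C57BL6 mice. In 12 libraries the mice had received 400 ng of interleukin 33 (IL-33) into the peritoneum each day for 7 days, which brings about eosinophilia, and in the other 12 the mice were in steady state, with no vehicle injection named in the labels. Each condition held stages I, II, III and IV of eosinophil maturation with 3 libraries per stage, and each library came from the pooled cells of 3 mice. The sort protocol bears on these genes: cells carrying the neutrophil protein Ly6G were first taken away on magnetic beads, together with cells carrying CD90.2, NK1.1 or CD45R, and cell sorting then separated the stages by surface staining for Siglec-F, CD117, CD55, CD29, CD200R3, F4/80 and Pir-A/B. Age and sex of the mice are not used here.

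Neutrophils fill their granules in sequence as they mature: myeloperoxidase and elastase enter the primary granules first, lactoferrin, lipocalin and the cathelicidin precursor enter the secondary granules later, and gelatinase follows. The genes of secondary granule proteins are known to be switched on together late in neutrophil development and to depend on the transcription factor C/EBP epsilon, which eosinophil development also needs. S100a8 and S100a9 encode the 2 subunits of calprotectin, a zinc-binding and calcium-binding protein that makes up a large share of the neutrophil cytosol. Eosinophils store another set of proteins in their own specific granules, among them eosinophil peroxidase, the product of Epx.

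The genes lie on 4 chromosomes (GRCm38, annotation GENCODE M21). Camp (chromosome 9, 109847379 to 109849617), Ngp (110419747 to 110423012) and Ltf (111019271 to 111042767) follow each other on chromosome 9 with gaps of 570.1 kb and 596.3 kb, and Mmp8 lies far from them on the same chromosome (7558456 to 7568485). S100a8 (chromosome 3, 90668978 to 90670035) and S100a9 (90692632 to 90695721) are neighbours 22.6 kb apart on opposite strands, and Chil3 lies on chromosome 3 as well (106147554 to 106167564). Lcn2 (chromosome 2, 32384633 to 32388252), Fcnb (chromosome 2, 28076378 to 28084885) and Retnlg (chromosome 16, 48872621 to 48874496) complete the set. No other annotated gene overlaps any of the 10, so the unstranded libraries leave no overlapping partner to share their reads.

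Promoter windows of RefSeq (GRCm38.p6), from 250 bases before to 50 bases after the RefSeq start of a gene, were found for all 10. The 5 windows shown belong to the genes whose levels part company along the stages: Ngp and Camp, S100a8 and its neighbour S100a9, and Retnlg. They are chr9:110419558-110419857 on the plus strand for Ngp, chr9:109849407-109849706 on the minus strand for Camp, chr3:90668821-90669120 on the plus strand for S100a8, chr3:90695672-90695971 on the minus strand for S100a9 and chr16:48872358-48872657 on the plus strand for Retnlg. Each is written 5′ to 3′ along the gene, and capitals mark matches to the C/EBP motif TTGCNNAA on either strand (TTNNGCAA when read from the other strand).
Ngp: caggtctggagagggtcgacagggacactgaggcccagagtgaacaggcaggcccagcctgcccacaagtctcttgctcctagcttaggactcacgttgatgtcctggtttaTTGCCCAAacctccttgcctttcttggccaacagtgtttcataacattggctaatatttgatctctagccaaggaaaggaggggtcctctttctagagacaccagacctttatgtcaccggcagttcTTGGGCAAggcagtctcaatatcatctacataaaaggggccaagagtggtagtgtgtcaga
Camp: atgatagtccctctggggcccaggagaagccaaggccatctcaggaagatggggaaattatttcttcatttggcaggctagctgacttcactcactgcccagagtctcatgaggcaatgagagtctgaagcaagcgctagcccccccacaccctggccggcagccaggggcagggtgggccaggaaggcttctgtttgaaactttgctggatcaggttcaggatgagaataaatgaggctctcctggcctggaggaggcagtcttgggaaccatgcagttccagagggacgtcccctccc
S100a8: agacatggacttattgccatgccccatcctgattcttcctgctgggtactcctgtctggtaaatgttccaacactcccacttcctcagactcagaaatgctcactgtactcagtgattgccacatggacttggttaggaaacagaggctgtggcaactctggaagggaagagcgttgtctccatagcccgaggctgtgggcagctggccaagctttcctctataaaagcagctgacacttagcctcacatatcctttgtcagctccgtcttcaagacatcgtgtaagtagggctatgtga
S100a9: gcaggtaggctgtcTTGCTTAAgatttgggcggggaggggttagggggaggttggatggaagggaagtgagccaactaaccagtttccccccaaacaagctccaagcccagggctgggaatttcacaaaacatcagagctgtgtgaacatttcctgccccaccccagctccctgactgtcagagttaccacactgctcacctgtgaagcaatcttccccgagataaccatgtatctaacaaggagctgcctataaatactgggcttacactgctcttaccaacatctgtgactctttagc
Retnlg: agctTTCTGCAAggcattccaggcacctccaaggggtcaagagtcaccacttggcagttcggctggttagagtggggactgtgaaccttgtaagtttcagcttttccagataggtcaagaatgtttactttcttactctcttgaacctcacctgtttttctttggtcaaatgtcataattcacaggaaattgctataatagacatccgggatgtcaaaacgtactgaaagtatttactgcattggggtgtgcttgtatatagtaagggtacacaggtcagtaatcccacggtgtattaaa
The C/EBP letters were present in the windows of 7 of the 10 genes, against 10.8% of 27025 promoter windows of the same length. The windows of Camp, S100a8 and Chil3 held none. Ngp held matches starting at positions -138 and -11 from its start, S100a9 at -236 and Retnlg at -246. Among genes whose windows are not shown, Fcnb held them at -235 and -123, Lcn2 at -216, Ltf at -75 and Mmp8 at -19. Genes that fell from stage II to III in steady state included some with matches (Fcnb and Lcn2) and some without (Camp and Chil3). A link of these letters to the levels was not tested. The GATA motif AGATAA was found in S100a9, Chil3 and Ltf, 3 of the 10, against 11.4% of all windows. The ETS motif AGGAAGT was found in Fcnb, S100a8, Chil3 and Mmp8, 4 of the 10, against 9.57%. Both strands were searched for each motif, no match of one motif overlapped a match of another in these windows, and a match describes letters only.

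Gene counts per library lay between 8335138 and 14909453, so counting error was small beside the spread between libraries for all but the lowest values. Reads assigned to no gene made up 9.19% to 16.6% of counted reads in IL-33 libraries and 17.8% to 30.5% in steady state libraries, without overlap. The 9 eosinophil markers (Epx, Prg2 and others) summed to between 20540 and 40400 CPM in IL-33 libraries, between 15440 and 41590 CPM in steady state stages I to III and between 3331 and 4204 CPM in steady state stage IV, where Epx stood at 18.57 to 26.47 CPM. None of the 9 was at 0 throughout, while the globin genes Hbb-bs, Hbb-bt, Hba-a1 and Hba-a2 of erythroid cells were listed at 0 in all 24 libraries. Levels are given as CPM, counts scaled to a common library total with edgeR's TMM factors, which level out differences in composition between libraries.

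The 10 genes took up a visible part of these eosinophil libraries. Together they summed to between 1388 and 10400 CPM in IL-33 libraries and between 2837 and 32110 CPM in steady state libraries, and their share of all gene counts was at most 0.931% under IL-33 and 3.44% in steady state. Per kb of exon, to compare genes of different length, Retnlg had the highest group mean, 10650 ± 2660 CPM per kb in steady state stage IV (SD, n = 3), followed by Ngp at 8421 ± 2440 CPM per kb in steady state stage III and S100a9 at 4579 ± 784 CPM per kb in steady state stage II. Camp, S100a8 and Chil3 had their highest group means at 3047 ± 340, 2540 ± 323 and 2507 ± 925 CPM per kb. Mmp8, a collagenase, had the lowest peak of the 10, with group means between 2.8 and 66.1 CPM per kb, while the lowest single group mean was that of Fcnb in IL-33 stage III, 1.192 CPM per kb.

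The highest group mean in CPM belonged to steady state stage II for 8 of the genes, to steady state stage III for Ngp and to steady state stage IV for Retnlg. The lowest belonged to IL-33 stage III for 8 genes, to IL-33 stage IV for Ngp and to IL-33 stage I for Retnlg. The ratio of the highest to the lowest group mean was 645 for Fcnb, 172 for Retnlg, 157 for Camp, 109 for Lcn2, 90.4 for Ltf, 54.3 for Chil3, 50.2 for S100a8, 23.6 for Mmp8, 10.9 for Ngp and 9.27 for S100a9. Fcnb spanned the widest range and S100a9 the narrowest.

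**Figure D1:**
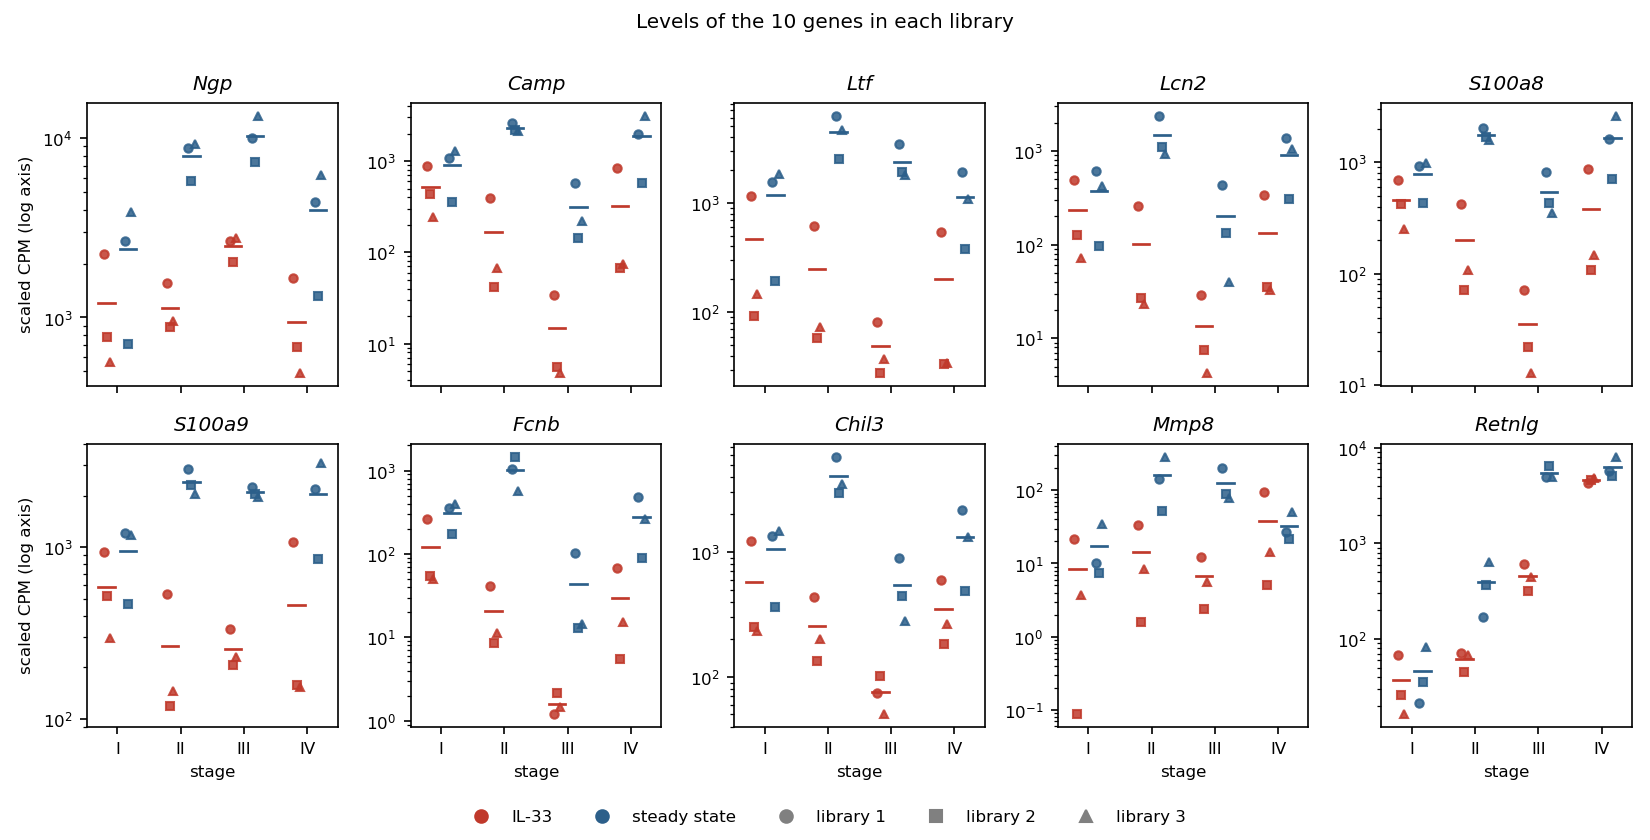
Level of each of the 10 genes in every library, in scaled CPM on a log axis that differs between panels, against stage, with IL-33 left of steady state at each stage. Symbols give the library number and horizontal bars the group means. In stages II and III every IL-33 library lies below every steady state library. The group means of Retnlg rise with stage in both conditions, with overlapping libraries between stages I and II under IL-33 and between III and IV in steady state.

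The first question was whether IL-33 changed these genes in cells of one stage. In stage II, 9 of the 10 genes fell under IL-33, by 6.44-fold (Retnlg) to 50.5-fold (Fcnb), and in stage III all 10 fell, by 4.13-fold (Ngp) to 48.2-fold (Ltf). In stage IV 3 fell, Ngp, S100a9 and Fcnb, and in stage I none passed the test. In these bulk samples, fewer cells that carry a transcript and less of it per cell cannot be told apart.

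In stage II, Fcnb, which encodes ficolin B, a lectin that binds microbial sugars, had 41.46, 8.496 and 11.37 CPM in IL-33 libraries, against 1054, 1468 and 566 CPM in steady state. Camp, the cathelicidin precursor, had 389.8, 41.82 and 67.91 CPM under IL-33, against 2608, 2174 and 2150 CPM in steady state. S100a8 had 422.4, 71.92 and 106.9 CPM under IL-33, against 2016, 1689 and 1585 CPM in steady state. For all 3 the first IL-33 library was the highest of its group and still lay below every steady state library. Ngp, neutrophilic granule protein, a cystatin-like protein of the secondary granules in mice, had 1567, 879.1 and 953 CPM under IL-33, against 8836, 5776 and 9242 CPM in steady state. S100a9 had 536.3, 119.8 and 145.8 CPM under IL-33, against 2839, 2290 and 2040 CPM in steady state. Chil3, also known as Ym1, a chitinase-like protein without enzyme activity, had 436.7, 134.6 and 199.3 CPM under IL-33, against 5806, 2986 and 3485 CPM in steady state. The libraries of these genes did not overlap either, nor did those of Ltf, Lcn2, Retnlg and Mmp8.

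Fcnb showed the largest stage II difference of the 10, a log2 fold change of -5.66 (SE 1.02, Benjamini-Hochberg adjusted p = 0.00141 by the quasi-likelihood test of edgeR). Chil3 followed with adjusted p = 0.00156, Retnlg with 0.00184, Ngp with 0.00553 and S100a9 with 0.00579. Ltf, which encodes the iron-binding lactoferrin, differed by -4.16 (SE 1.17, adjusted p = 0.0294), and Lcn2, whose product binds bacterial siderophores, by -3.84 (SE 1.14, adjusted p = 0.0386). Mmp8 had 33.36, 1.611 and 8.526 CPM under IL-33, against 141.4, 52.18 and 287.4 CPM in steady state, and missed the threshold at -3.47 (SE 1.17, adjusted p = 0.0691). Of all 12743 genes tested, 3.97% were called lower in stage II and 11.4% had all IL-33 libraries below all steady state libraries, against 9 and 10 of these 10. The median log2 fold change was -3.63 over the 10 genes and 0.06 over all genes. The calls of Camp, Ltf, Lcn2 and S100a8 were lost without the second or the third IL-33 library of stage II, so that 5 of the 10 remained called, and those of Ltf and Lcn2 also without the first or the third steady state library. Over all genes, calls went from 1023 to 381 without the second IL-33 library and to 571 without the third.

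In stage III, the IL-33 libraries held some of the lowest values in the series. Fcnb had 1.199, 2.145 and 1.444 CPM under IL-33, against 102.1, 13.03 and 14.42 CPM in steady state. Camp had 34, 5.496 and 4.734 CPM under IL-33, against 578.3, 144.3 and 220.2 CPM in steady state. Ltf had 82.38, 27.81 and 37.79 CPM under IL-33, against 3426, 1907 and 1788 CPM in steady state. In each of these genes the steady state libraries lay apart from and above the IL-33 libraries, with the first steady state library the highest. Ngp kept a high level in both conditions, with 2665, 2038 and 2778 CPM under IL-33 and 10080, 7415 and 13360 CPM in steady state. S100a9 had 334.4, 207.2 and 231.5 CPM under IL-33, against 2249, 2054 and 1952 CPM in steady state. S100a8 had 70.65, 22.05 and 12.76 CPM under IL-33, against 820.5, 433.1 and 351 CPM in steady state. These groups were also separate.

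The stage III log2 fold changes were largest for Ltf at -5.59 (SE 1.25, adjusted p = 0.00151), Fcnb at -4.73 (SE 1.04, adjusted p = 0.00126) and Camp at -4.42 (SE 1.06, adjusted p = 0.00263) in edgeR's test. Mmp8 differed by -4.2 (SE 1.22, adjusted p = 0.0106), S100a8 by -3.93 (SE 0.81, adjusted p = 0.000687) and S100a9 by -3.02 (SE 0.68, adjusted p = 0.00158). Ngp differed least, by -2.04 (SE 0.59, adjusted p = 0.00971). Among all tested genes 14.9% were called lower in stage III and 22.2% were lower without overlap, against all 10 genes here on both counts, and the median log2 fold change was -3.92 over the 10 genes and 0 over all genes. Lcn2 lost its call without the first steady state library (adjusted p = 0.0748) or without the second or the third IL-33 library (0.0601 and 0.0563), and Mmp8 without the second IL-33 library (0.0575).

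Retnlg, which encodes resistin-like gamma, a secreted protein of the resistin family found in mouse myeloid cells, behaved differently from the rest. Its IL-33 libraries read 67.97, 25.83 and 16.23 CPM at stage I, then 71.18, 44.82 and 67.01 CPM at stage II, then 610.3, 319.7 and 449.5 CPM at stage III, and at last 4328, 4610 and 4853 CPM at stage IV. Its steady state libraries read 21.35, 35.11 and 82.15 CPM at stage I, then 168.3, 368.9 and 641.1 CPM at stage II, then 4954, 6450 and 4960 CPM at stage III, and at last 5751, 5091 and 8106 CPM at stage IV. Stage III was the point of the widest separation between conditions, with every steady state library several times above every IL-33 library, whereas in stage IV the IL-33 libraries lay just under the steady state range. In order of group means, steady state stages IV and III overlapped in their libraries, IL-33 stage IV lay just below both, IL-33 stage III overlapped steady state stage II, and the remaining groups followed, with overlap between IL-33 stage II and steady state stage I and between the 2 stage I groups. The IL-33 fold change was -0.33 (SE 0.47, adjusted p = 0.765) in stage I, -2.69 (SE 0.5, adjusted p = 0.00184) in stage II, -3.57 (SE 0.52, adjusted p = 1.81e-05) in stage III and -0.46 (SE 0.47, adjusted p = 0.576) in stage IV on the log2 scale. The joint test of a difference in the IL-33 effect among the 4 stages gave adjusted p = 0.00211 for Retnlg.

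Of all genes tested, 17.8% passed that joint test, and of the 10 genes Retnlg alone did, the others having adjusted p between 0.0607 (Fcnb) and 0.372 (Ngp). A stage II or III effect past the threshold beside a stage I or IV effect short of it did not amount to a difference past the threshold for the other 9 in that fit. With the replicate number within its condition as a block all 10 passed, and 25.6% of all genes did. Numbers paired libraries in 4 of the 6 steps between stages and in none of the comparisons between conditions, so both counts are given.

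In stage IV the libraries of the 2 conditions overlapped for most genes. Ngp had 1663, 686.3 and 488.7 CPM under IL-33, against 4420, 1315 and 6248 CPM in steady state. S100a9 had 1076, 157.7 and 154.2 CPM under IL-33, against 2197, 855.5 and 3107 CPM in steady state. Fcnb had 68.67, 5.451 and 15.19 CPM under IL-33, against 488.2, 88.79 and 265.5 CPM in steady state. The first IL-33 library stood high and the second steady state library low in all 3 genes, which overlapped in Ngp and S100a9 and did not in Fcnb. The log2 fold changes were -2.08 for Ngp (SE 0.59, adjusted p = 0.0222), -2.15 for S100a9 (SE 0.66, adjusted p = 0.0338) and -3.24 for Fcnb (SE 0.91, adjusted p = 0.022). Lower calls made up 4.68% of all genes and lower values without overlap 14.9%, against 3 of the 10 called here and 2, Fcnb and Retnlg, without overlap.

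The other stage IV values missed the threshold: Camp (-2.55, adjusted p = 0.088), Ltf (-2.48, 0.143), Lcn2 (-2.75, 0.102), S100a8 (-2.13, 0.0633), Chil3 (-1.93, 0.062) and Mmp8 (0.23, 0.924), as log2 fold changes with edgeR's adjusted p. Mmp8 was the single gene of the 10 with a positive value in any stage. Its libraries read 95.9, 5.004 and 14.37 CPM under IL-33 and 27.17, 21.25 and 49.92 CPM in steady state, so the first IL-33 library lay above and the other two below the steady state range. With that first stage IV IL-33 library left out, 8 of the genes were called in place of 3, with Camp at -4.75 (adjusted p = 0.00727) and Lcn2 at -4.73 (adjusted p = 0.024). Of all genes 1116 of 13152 tested were called in that fit, against 1550 of 12743 with every library. Leaving out the second or the third left 0, the first or the third steady state library 1 and the second steady state library 5, so the stage IV count rests on single libraries. Over all genes, 802 and 1250 were called without the second and the third IL-33 library. Without the first, the third and the second steady state library, 1526, 1035 and 1196 were. In stage IV the 9 eosinophil markers summed to 20540 to 26650 CPM under IL-33 and 3331 to 4204 CPM in steady state, and their part in these results was not tested.

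Stage I showed no call. Ngp had 2263, 774.7 and 567.9 CPM under IL-33, against 2654, 707.1 and 3879 CPM in steady state. Ltf had 1154, 93.47 and 146.9 CPM under IL-33, against 1557, 194.7 and 1820 CPM in steady state. The libraries of both conditions covered much the same range, and the groups overlapped in all 10 genes. All 10 log2 fold changes were negative, between -0.33 and -1.36 with a median of -0.84 (0.02 over all genes), and edgeR called 0 of them, with 0 at an unadjusted p under 0.05 and 0 called by DESeq2, where 1.36% of all genes were called lower. Without the 4 IL-33 libraries numbered 1, an alternative chosen after seeing the data, 1 gene was called, Ltf at -3.3 (adjusted p = 0.0241).

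**Figure D2:**
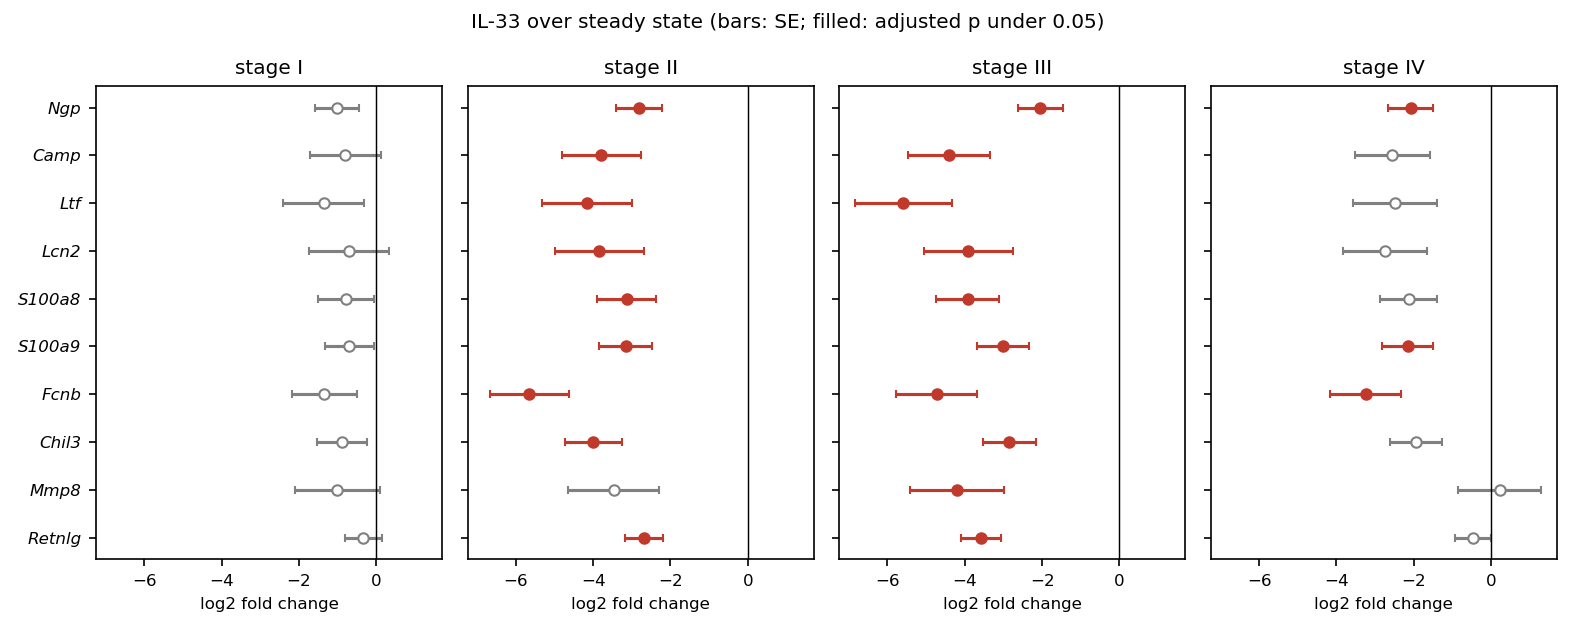
Log2 fold change of IL-33 over steady state for each of the 10 genes, a panel per stage, with bars of 1 SE and filled points where edgeR's adjusted p lay under 0.05. Filled points number 0 in stage I, 9 in stage II, 10 in stage III and 3 in stage IV, all left of zero.

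Averaged over the 4 stages, all 10 genes fell under IL-33, where 16.7% of all tested genes did. The average log2 fold change was -3.74 for Fcnb (SE 0.48, adjusted p = 2.3e-06), -3.4 for Ltf (SE 0.57, adjusted p = 6.04e-05), -2.89 for Camp (SE 0.49, adjusted p = 7.81e-05) and -2.8 for Lcn2 (SE 0.55, adjusted p = 0.000336). S100a8 fell by 2.49, Chil3 by 2.42, S100a9 by 2.26, Mmp8 by 2.11, Ngp by 1.99 and Retnlg by 1.76 on the same scale, with adjusted p between 6.06e-06 (Retnlg) and 0.00484 (Mmp8). The median was -2.45 over the 10 genes and 0.05 over all genes, and all 10 calls held when each of the 24 libraries was left out in turn. If the 4 libraries of a condition and number are taken as 1 unit, since the libraries may come from the same mice, the means over stages did not overlap in any of the 10 genes. The closest approach was Mmp8, at 40.83 CPM in the highest IL-33 unit and 42.27 CPM in the lowest steady state unit, and lower values without overlap made up 20.5% of all genes. On counts summed that way, 3 units against 3, 9 of the 10 were called, where 21.4% of all genes were, and Mmp8 was not (-2.33, adjusted p = 0.0727).

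The second question was how the genes changed along the stages in steady state. Between stages I and II all 10 genes had every stage II library above every stage I library, where 10.8% of all genes did. Retnlg, the clearest case, had the 168.3 to 641.1 CPM of stage II given above against 21.35 to 82.15 CPM in stage I, a log2 fold change of 3.08 (SE 0.51, adjusted p = 0.00084). The other 9 lay between 1.17 (S100a8) and 3.22 (Mmp8) and did not pass, with adjusted p from 0.087 (Ngp) to 0.459 (Camp), so 1 of the 10 was called higher, against 3.58% of all genes. The replicate numbers paired libraries in this step, and with the number as a block 9 were called, all but Fcnb, where 8.39% of all genes were, with Ngp at 1.99 (adjusted p = 0.00114), Mmp8 at 3.2 (adjusted p = 0.00101) and Ltf at 2.16 (adjusted p = 0.00786). In the stage I group the second library was the lowest in 9 of the 10 genes.

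The steady state step between stages II and III took the genes separate ways. Retnlg rose by 3.8 on the log2 scale (SE 0.52, adjusted p = 9.94e-06). Fcnb fell by 4.58 (SE 0.97, adjusted p = 0.000919), Chil3 fell by 2.92 (SE 0.7, adjusted p = 0.00249), Camp fell by 2.88 (SE 0.98, adjusted p = 0.0264) and Lcn2 fell by 2.86 (SE 1.09, adjusted p = 0.046) on the log2 scale. The level of Chil3 was 897.2, 448.4 and 279.5 CPM in stage III, against 5806, 2986 and 3485 CPM in stage II, and that of Lcn2 was 430.4, 134.6 and 39.87 CPM in stage III, against 2375, 1092 and 916.6 CPM in stage II. Both groups were clear of each other, although Lcn2 varied widely among the stage III libraries.

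The other 5 genes missed the threshold in that step. Ngp differed by 0.37 (SE 0.57, adjusted p = 0.653), S100a9 by -0.2 (SE 0.63, adjusted p = 0.849), Mmp8 by -0.37 (SE 1.06, adjusted p = 0.828) and Ltf by -0.91 (SE 1.04, adjusted p = 0.529), all with overlapping libraries. S100a8 differed by -1.72 (SE 0.74, adjusted p = 0.0726), with all stage III libraries below those of stage II, as in Camp, Lcn2, Fcnb and Chil3, which makes 5 of the 10, against 17.6% of all genes. Across all genes 17.2% were called higher and 17.4% lower, against 1 and 4 of these 10. The calls of Camp and Lcn2 were lost, leaving 3, without the first stage II library (adjusted p = 0.0504 and 0.132), the second stage III library (0.0999 and 0.133) or the third stage III library (0.081 and 0.137), and Lcn2 alone without the second stage II library (0.0577). They were lost as well without the 4 steady state libraries numbered 3, which stood apart on the stress gene Jun (3331 to 5018 CPM, against at most 2142 CPM in the other 20 libraries).

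Between stages III and IV in steady state edgeR called 0 of the 10 genes, 4 having an unadjusted p under 0.05 and DESeq2 calling 1, Fcnb, where 9.23% of all genes were called. Camp had 1968, 573 and 3141 CPM in stage IV, against 578.3, 144.3 and 220.2 CPM in stage III. Ngp had 4420, 1315 and 6248 CPM in stage IV, against 10080, 7415 and 13360 CPM in stage III. Camp overlapped narrowly, with its second stage IV library just under the top stage III library, while every stage IV library of Ngp was below stage III. Mmp8 was likewise lower without overlap, so 2 of the 10 were, against 11.4% of all genes. The log2 fold changes were 2.59 for Camp (SE 0.97, adjusted p = 0.0958), 2.7 for Fcnb (SE 0.89, adjusted p = 0.0587) and -1.36 for Ngp (SE 0.57, adjusted p = 0.14). The numbers paired libraries here too, and with the block 6 genes were called, where 13.8% of all genes were: Camp at 2.53 (adjusted p = 0.00114), Lcn2 at 2.28 (0.00501), S100a8 at 1.54 (0.0131) and Fcnb at 2.93 (0.00422) higher, and Ngp at -1.59 (0.00391) and Mmp8 at -2.09 (0.012) lower. Fcnb was also called without the first stage III library (adjusted p = 0.0126) or the second stage IV library (0.0417). A joint test of any difference among the 4 steady state stages passed for Retnlg (adjusted p = 3.81e-09), Fcnb (0.00243), Chil3 (0.0039) and Ngp (0.0154) and for none of the other 6, of which Mmp8 was nearest (0.0522). The share of all genes that passed this joint test is not given here, so these 4 passes are no result about the 10 as a set. The step from II to III alone called 4405 of the 12743 genes tested.

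Under IL-33 the early steps gave few calls across the whole transcriptome. Between stages I and II edgeR called 0 of the 10 genes, with 1 at an unadjusted p under 0.05 (Fcnb, -2.58, adjusted p = 0.681) and 0 called by DESeq2, where 0.0942% of all genes were called. With the replicate block, in a step where numbers paired, 1 was called, Camp at -2.25 (adjusted p = 0.0495), where 0.188% of all genes were. Of the 10 log2 fold changes 8 were negative, with a median of -1.15 (0.02 over all genes), whereas all 10 were positive in steady state, with a median of 1.82 (-0.01 over all genes). That contrast between conditions was tested for any stage by the joint test above, and not for this step alone.

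Between stages II and III under IL-33, Retnlg rose by 2.91 on the log2 scale (SE 0.5, adjusted p = 0.025), 1 of the 10 genes, where 0.0863% of all genes were called. This call was lost without the first, second or the third stage II library (adjusted p = 0.23, 0.156 and 0.106) or without the first or the third stage III library (0.175 and 0.0971), with values between 2.66 and 3.04 in those 5 fits. Camp (-3.5, adjusted p = 0.249), Fcnb (-3.65, 0.195), S100a8 (-2.51, 0.296) and Chil3 (-1.77, 0.578) had all stage III libraries below stage II without passing, 4 of the 10, against 12.5% of all genes. Ngp (1.14, 0.948) had all above, as had Retnlg, which makes 2 of the 10, against 13.2% of all genes. With the block, in a step where numbers paired, 4 were called, where 0.73% of all genes were: Retnlg, Camp at -3.46 (adjusted p = 0.0024), S100a8 at -2.46 (0.00681) and Lcn2 at -2.52 (0.0264). S100a9, without the block, had -0.05 (SE 0.63, adjusted p = 1).

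Between stages III and IV under IL-33, 6 genes rose, where 13.1% of all genes were called higher. Camp rose by 4.46 on the log2 scale (SE 1.06, adjusted p = 0.00274), with 831, 66.75 and 73.93 CPM in stage IV, against 34, 5.496 and 4.734 CPM in stage III. S100a8 rose by 3.42 (SE 0.79, adjusted p = 0.00209), with 873.4, 108.4 and 148.1 CPM in stage IV, against 70.65, 22.05 and 12.76 CPM in stage III. In both genes the first stage IV library was several times higher than its 2 partners, and those 2 still lay above every stage III library. Fcnb (4.2, adjusted p = 0.00332), Retnlg (3.32, 3.81e-05), Lcn2 (3.33, 0.0295) and Chil3 (2.2, 0.0171) rose as well. Ngp ran the other way at -1.4 (adjusted p = 0.0712), with all stage IV libraries below stage III, and S100a9 (0.84, 0.346), Ltf (2.03, 0.164) and Mmp8 (2.51, 0.104) did not pass. Without the first stage IV library Camp (adjusted p = 0.0675), Lcn2 (1.34, 0.393) and Chil3 (0.112) lost their calls and Ngp gained one (-2.09, adjusted p = 0.0215). Lcn2 and Chil3 depended on stage III libraries too: Lcn2 without the second or the third (adjusted p = 0.115 and 0.113), and Chil3 without the first or the third (0.0553 and 0.0768). Without the 4 IL-33 libraries numbered 1, a setting chosen after seeing the data, Fcnb lost its call as well (2.51, adjusted p = 0.0731), beside Lcn2 (0.0636) and Chil3 (0.115).

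**Figure D3:**
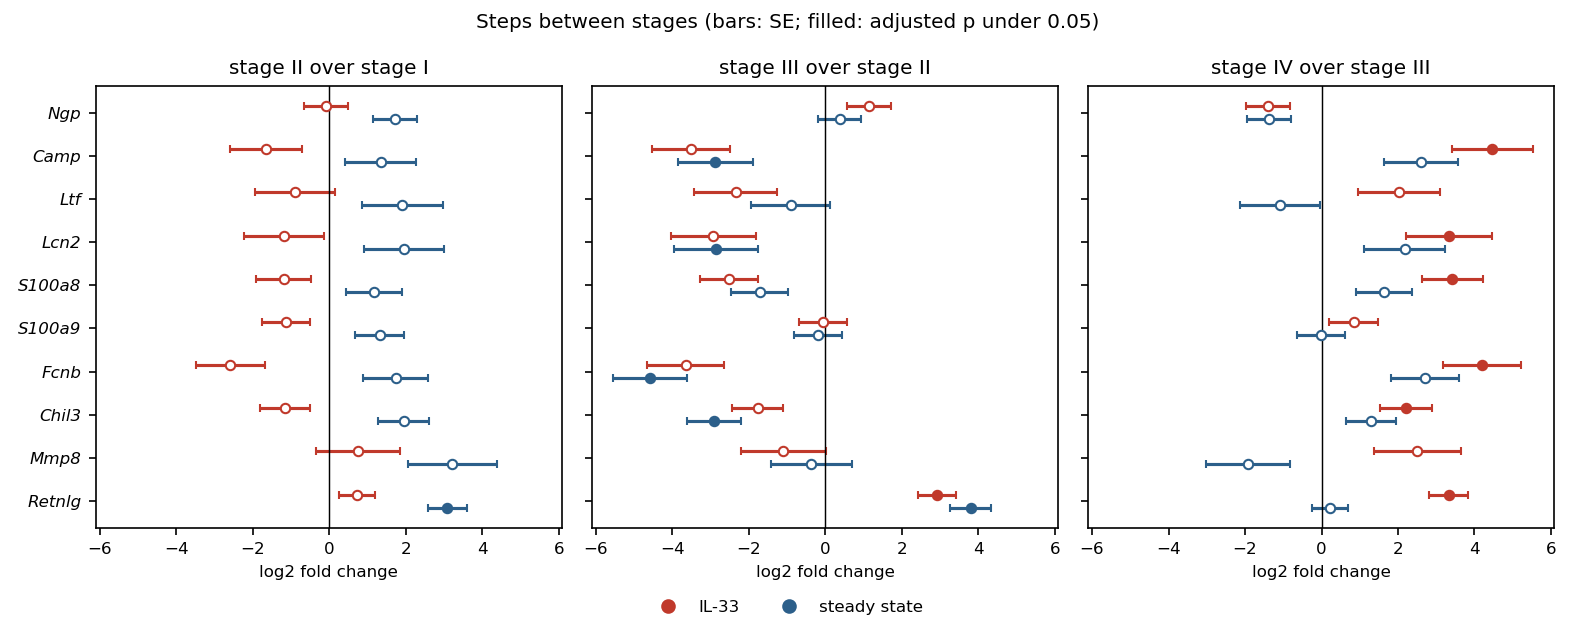
Log2 fold change of the later over the earlier stage for each of the 10 genes, IL-33 above steady state in each row, with bars of 1 SE and filled points where edgeR's adjusted p lay under 0.05. Retnlg has filled points to the right in 4 of the 6 steps, and Camp, Lcn2, S100a8, Fcnb and Chil3 lie left of zero from stage II to III and right of it from III to IV in both conditions.

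Stage III separated genes that lie side by side in function, which the ratio of counts within a library shows without any scaling. The count of S100a9 over that of S100a8 was 4.73, 9.4 and 18.1 in IL-33 stage III and 2.74, 4.74 and 5.56 in steady state stage III, and between 1.04 and 1.67 in all 18 libraries of the other stages. S100a9 had the higher count in every library, by a small margin outside stage III and by a wider one within it. The exons of S100a9 cover fewer bases (522, against 694 for S100a8), which a ratio of counts leaves out. Ngp over Camp was 78.4, 371 and 587 in IL-33 stage III and 17.4, 51.4 and 60.7 in steady state stage III, against 1.78 to 2.55 in IL-33 stage I and 1.97 to 3.03 in steady state stage I. In stage II it was 4.02, 21 and 14 under IL-33, where the second library exceeded the first steady state library of stage III, and 2.66 to 4.3 in steady state, and in stage IV 2, 10.3 and 6.61 under IL-33 and 1.99 to 2.29 in steady state. These ratios were chosen after their values were seen and are given with no test.

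**Figure D4:**
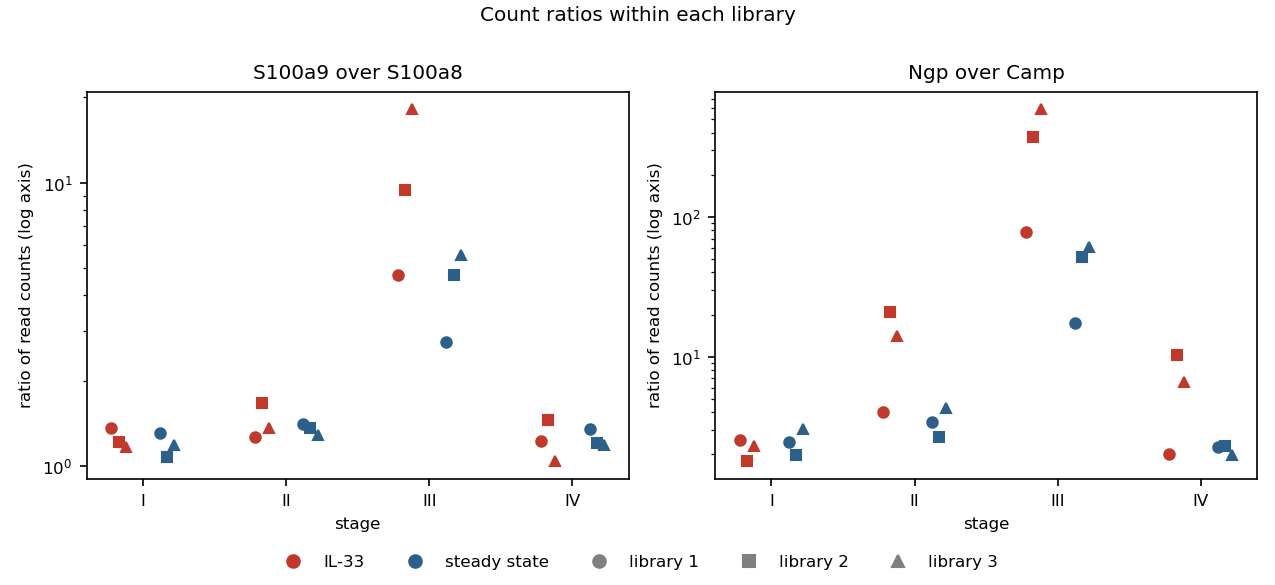
Ratio of read counts within each library for S100a9 over S100a8 (left) and Ngp over Camp (right), on log axes, by stage with IL-33 left of steady state. Within each condition stage III stands above the other stages in both panels, at 4.73 to 18.1 and 78.4 to 587 under IL-33 and at 2.74 to 5.56 and 17.4 to 60.7 in steady state.

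Within a group, most of the genes moved together from library to library. The Pearson correlation of deviations from the group means, over the 24 libraries, was 0.98 for Camp with S100a8, 0.92 for S100a8 with S100a9, 0.92 for Lcn2 with S100a8 and 0.91 for Ltf with S100a9. Retnlg stood outside, with 0.19 to 0.51 against the other 9 (median 0.3), and Ngp reached 0.43 to 0.84. These values share the library and its scaling and are descriptions. The within-group SD was widest for Ltf (1.51), Lcn2 (1.48) and Mmp8 (1.46) and narrowest for Ngp (0.83) and Retnlg (0.65) on the log2 scale of CPM + 1.

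Some libraries stood out in that shared movement. The first IL-33 library was the highest of its group for 10, 10, 7 and 9 of the 10 genes in stages I, II, III and IV, by 1.39, 1.4, 0.71 and 1.68 log2 units above the group mean on average. The second steady state library was the lowest for 9 genes in stage I and 10 in stage IV, with mean deviations of -1.09 and -1.07. Other libraries deviated about as much: the first steady state library of stage III and the third of stage I (0.77 each), and the second IL-33 library of stages II and IV (-0.95 and -1). Retnlg was the exception in IL-33 stage IV, where its 3 libraries lay within 4328 to 4853 CPM while Camp ran from 66.75 to 831 CPM.

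**Figure D5:**
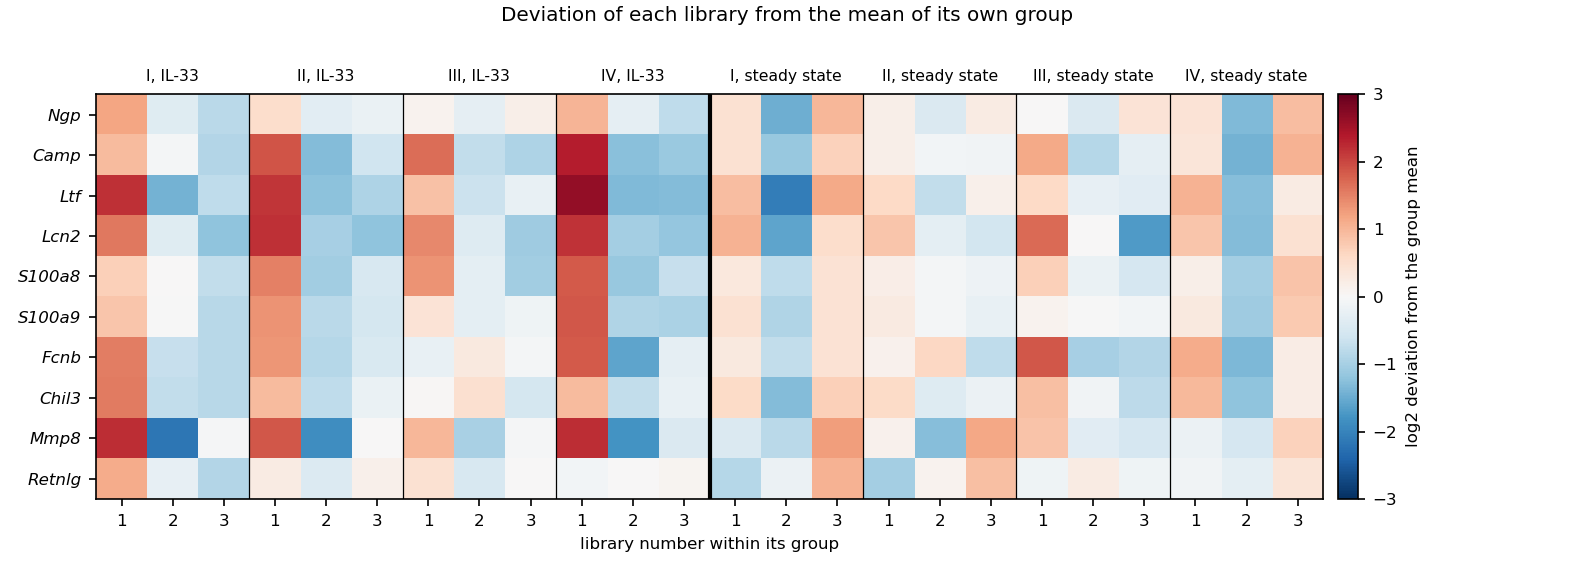
Log2 deviation of each library from the mean of its own group, genes in rows and the 24 libraries in columns, IL-33 groups left of the heavy line and steady state groups right of it. Red columns include the first IL-33 library of each stage (mean deviation 0.71 to 1.68), the first steady state library of stage III and the third of stage I (0.77 each). Blue columns include the second steady state library of stages I and IV (-1.09 and -1.07) and the second IL-33 library of stages II and IV (-0.95 and -1).

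The wider neutrophil programme was followed in lists of other genes, chosen with earlier results of these data known. Of 16 further granule genes, 9 were called lower under IL-33 in stage II and 12 in stage III, where 3.97% and 14.9% of all genes were. In stage IV 2 of the list were called higher and 1 lower, with a median of -0.23 (-0.04 over all genes). There 1550 of the 12743 genes tested were called, 4.68% of all genes as lower. On average 10 of the 16 were lower, where 16.7% of all genes were, and 0 higher, with a median of -1.16 (0.05 over all genes), and the IL-33 effect of 9 of the 16 differed among stages in the joint test, where that of 17.8% of all genes did. Lyz2, which encodes lysozyme, fell by 2.47 on the log2 scale on the average of stages (SE 0.25, adjusted p = 1.21e-07), Cybb, a subunit of the NADPH oxidase, by 1.56 (adjusted p = 5.93e-07), and Hp, haptoglobin, by 1.74 (adjusted p = 3.69e-06). The list had its lowest sum in steady state stage I, 3528 CPM, and its highest in steady state stage III, 16680 CPM. In the step from II to III in steady state 8 of the list rose and 2 fell, where 17.2% of all genes rose and 17.4% fell: the protease inhibitor gene Slpi rose by 2.44 (adjusted p = 5.63e-07) and the membrane-bound metalloproteinase gene Mmp25 by 3.05 (adjusted p = 0.000737), the same direction as Retnlg, while Hp was among those that fell. Of 12 genes of the neutrophil surface and its receptors 8 fell and 1 rose on average, with a median of -1.45, where 16.7% of all genes fell. In stage IV 2 of the 12 were called higher and 0 lower, with a median of 0.67 (-0.04 over all genes). There 1550 of the 12743 genes tested were called in either direction, 4.68% of all genes as lower. The effect of 7 of the 12 differed among stages, where that of 17.8% of all genes did. On average Csf3r, the receptor of granulocyte colony-stimulating factor, fell by 3.08 (SE 0.49, adjusted p = 3.51e-05) and Cxcr2, a chemokine receptor, by 2.02 (SE 0.61, adjusted p = 0.0111), while the decoy receptor gene Il1r2 rose by 1.12 (adjusted p = 0.00195).

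Ly6g, whose protein was the target of the bead depletion, did not follow the granule genes through stage IV. It had 177.3, 107.3 and 78.3 CPM in IL-33 stage IV, against 29.25, 5.913 and 37.85 CPM in steady state, and all IL-33 libraries lay above, without passing (2.32, SE 0.79, adjusted p = 0.0559). In stage III it had 17.13, 8.109 and 11.31 CPM under IL-33, against 87.78, 76.48 and 44.12 CPM in steady state, and fell by 2.51 on the log2 scale (SE 0.79, adjusted p = 0.0177). Its IL-33 effect differed among stages (adjusted p = 0.00452). Between stages III and IV under IL-33 Ly6g rose by 3.31 (SE 0.82, adjusted p = 0.00368), beside the rise of Camp, S100a8 and Fcnb. In that step 6 of the 12 surface and receptor genes and 9 of the 16 further granule genes rose, where 13.1% of all genes did. The part of neutrophils in the sorted cells in these results was not tested.

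The list of primary granule genes held Mpo, Elane, Prtn3, Ctsg and Ms4a3. They summed to 3459 to 4364 CPM in IL-33 stage I and 4376 to 5715 CPM in steady state stage I. In stage III the sum was 253.6 to 311.9 CPM under IL-33 and 158.8 to 439.9 CPM in steady state. All 5 fell in the steady state step between stages II and III, Mpo by 4.24 on the log2 scale (SE 0.64, adjusted p = 2.71e-05) and Elane by 3.81 (SE 0.64, adjusted p = 8.93e-05), where 4 of the 10 secondary granule and cytosol genes and 17.4% of all genes did. On average under IL-33 4 of the 5 fell, where 16.7% of all genes did, with a median of -1.21. Elane fell by 2.67 (SE 0.31, adjusted p = 5.9e-07) and Mpo by 1.21 (SE 0.28, adjusted p = 0.00193), and in stage II Elane fell by 4.77 (SE 0.67, adjusted p = 0.000118). Of 8 granulocyte transcription factors 3 rose and 3 fell on average, where 4855 of the 12743 genes tested were called in either direction. Cebpe, the factor named above for these genes, rose by 0.47 on the log2 scale (SE 0.14, adjusted p = 0.013), and in stage III its log2 fold change was -0.08 (SE 0.29, adjusted p = 0.851); its part in the results of the 10 genes was not tested. Gfi1, a repressor that neutrophil development needs, fell by 1.09 (SE 0.17, adjusted p = 3.87e-05), and Runx1 rose by 1.24 (SE 0.12, adjusted p = 3.34e-08). Neutrophil stefins, cysteine protease inhibitors with near-identical copies and uncertain counts for that reason, summed to at most 12.65 CPM in any library, and none of the 3 tested was called on average (edgeR, 0 at an unadjusted p under 0.05, 0 by DESeq2).

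Markers of monocytes moved with the condition as well. Of 12 monocyte genes 10 were called lower under IL-33 in stage II, where 3.97% of all genes were, and 10 lower and 1 higher in stage III, where 14.9% of all genes were lower, and their summed level was 1078 to 1272 CPM under IL-33 and 1784 to 2823 CPM in steady state in stage II, and 1246 to 1470 CPM under IL-33 and 2162 to 2697 CPM in steady state in stage III. In stage IV the sum was 3077 to 3251 CPM under IL-33 and 1158 to 1467 CPM in steady state, but 8 of the 12 had a negative log2 fold change (median -0.91). Of the 12, 1 was called higher and 1 lower there, where 1550 of the 12743 genes tested were called. Most of the IL-33 sum was Ly6c2, with a mean of 2304 CPM in a mean sum of 3192 CPM. In steady state Ly6c2 averaged 385.7 CPM in a mean sum of 1275 CPM and was the smaller part. In stage III 3 of 5 basophil and mast cell markers were called higher and 1 lower, where 4256 of the 12743 genes tested were called in either direction. Cpa3 averaged 1050 CPM under IL-33 and 31.27 CPM in steady state, and Prss34, the one called lower, 17.31 CPM under IL-33 and 181.5 CPM in steady state. Of 6 lymphocyte and natural killer cell markers tested there, 1 was called, Nkg7, with a mean of 321.2 CPM under IL-33 and 36.95 CPM in steady state, while Cd79b averaged 26.13 CPM under IL-33 and 49.6 CPM in steady state without passing (adjusted p = 0.0887). The markers named with means here were chosen after their values were seen. No monocyte, basophil, mast cell, eosinophil or neutrophil marker listed in the counted genes was at 0 in all libraries, and the part of these markers in the results was not tested.

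The genes whose pattern over the 24 libraries was most like the mean of the 10, on standardised log2 values and among 11893 other genes, were Chil1 (r = 0.977), Lyz2 (0.951), Clec5a (0.95), Cd177 (0.944), Lrg1 (0.941), St3gal5 (0.93), Wfdc21 (0.928) and Ceacam10 (0.91), given as a description with no p. Of these, Chil1, Lyz2, Cd177 and Wfdc21 also belong to the list of further granule genes. Within groups, where the stages and conditions play no part, the correlation stayed at 0.96 to 0.97 for Chil1, Cd177 and Wfdc21 and was lowest for St3gal5, at 0.77. Chil1, a chitinase-like gene, averaged 0.817 CPM in IL-33 stage III and 46.4 CPM in steady state stage III, and 9.47 CPM in IL-33 stage II and 292 CPM in steady state stage II. All 8 had lower average levels under IL-33, with log2 fold changes between -2.47 (Lyz2) and -4.03 (Lrg1), a direction that the choice by likeness fixes in part. Among the 10 themselves the correlation with the mean ran from 0.83 (Mmp8) to 0.95 (Ltf and S100a9) for 8 genes, and was 0.73 for Ngp and 0.31 for Retnlg. Each of the 10 is part of that mean, which raises its own value, so these are not comparable with the values of the other genes.

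Chil3 has a near-identical copy in the genome, Chil4, with which reads could be shared, so its counts are uncertain to that extent. Chil4 stood at 0 to 0.551 CPM and at most 0.0375% of the Chil3 count in any library.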

How the data were processed

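Whole-number counts of reads per gene were used as deposited, a table for each of the 24 libraries; per the labels' protocols they came from SMART-Seq v4 and Nextera XT libraries, which do not mark the strand. The build mm10, STAR 2.6.1a and DESeq2 are named in the submitters' processing notes, while how reads were counted, on which annotation and with what strand setting is not given there or in the labels. The entries for reads with no feature and for ambiguous reads were left out of library sizes and tests. Mitochondrially encoded genes were not analysed here.

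Counts were fitted in R 4.3.3 with edgeR 4.0.16: filter by group (minimum count 10, minimum total 15), TMM, and 1 quasi-likelihood fit of 8 groups over 24 libraries, from which 12 comparisons were drawn. All 12743 tested genes entered the Benjamini-Hochberg adjustment (threshold 0.05), and the SE is the size of the log2 fold change over the square root of F. The fit was tested on simulated data first. DESeq2 1.42.0 was an alternative; plots used matplotlib 3.10.9 under Python 3.11.15. The 10 genes, the lists of other genes and the tests were chosen with earlier results of these data known. Besides the 10 genes, the text names a fixed panel, up to 4 genes per list with the smallest adjusted p for the average IL-33 effect and up to 4 for any stage difference in steady state, and the 8 genes of most like pattern. The design text calls the triplicates biological; the labels do not say that a number marks shared mice. Numbers were taken to pair libraries where the deviations of all 3 same-numbered pairs from their group means correlated above 0.1 over genes: stages I to II (0.12 to 0.3) and III to IV (0.11 to 0.22) in steady state, I to II (0.15 to 0.24) and II to III (0.13 to 0.24) under IL-33. The lowest was 0.06 for II to III in steady state, 0.05 for III to IV under IL-33 and -0.09 between conditions. For the steps between stages and the joint test, the replicate block was the number within each condition. For the comparisons of IL-33 with steady state, it was the number shared by the conditions, so these are different models. Motifs were searched by exact letters in RefSeq promoter windows of GRCm38.p6, matched by symbol.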

Additional observations from a re-analysis of the deposited data

Results flagged for a closer look

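Retnlg was singled out because its IL-33 effect differed among the 4 stages by a test of the difference itself (edgeR's joint test on the stage by condition terms, adjusted p = 0.00211). The log2 fold changes of IL-33 over steady state were -0.33, -2.69, -3.57 and -0.46 in stages I, II, III and IV, and all 3 IL-33 libraries lay below all 3 steady state libraries in stages II, III and IV. The call held under every alternative run for it, including the omission of each library in turn.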

How the results depend on the processing

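The counts of genes called among the 10 changed by over 1.5 times in 8 of the 12 comparisons under at least 1 alternative other than leaving out a single library, and the cause was not tested. In stage IV the 3 calls became 6 with no filter on low counts, 1 when only the libraries compared were fitted, 8 with the replicate block, 1 without the 4 steady state libraries numbered 3 and 8 without the 4 IL-33 libraries numbered 1, the last setting having been chosen after seeing the data. In stage I the 0 calls became 1 under that last setting. The joint test's 1 call became 3 with no filter, 10 with the replicate block and 4 without the IL-33 libraries numbered 1. In steady state the step from I to II had 1 call and 0 when only the libraries compared were fitted, 9 with the block and 2 without the IL-33 libraries numbered 1. The step from II to III had 5 calls and 3 without the steady state libraries numbered 3, and the step from III to IV had 0, against 1 by DESeq2, 1 with no filter, 6 with the block and 3 without the IL-33 libraries numbered 1. Under IL-33 the step from I to II had 0 calls and 1 with the block, and the step from II to III had 1, against 3 by DESeq2, 5 from the libraries compared alone, 4 with the block and 0 without the IL-33 libraries numbered 1. With each library left out in turn the counts ran from 0 to 0, 5 to 9, 8 to 10 and 0 to 8 for IL-33 in stages I to IV, 10 to 10 on average, 1 to 4 in the joint test, 1 to 1, 3 to 5 and 0 to 1 for the steady state steps and 0 to 0, 0 to 1 and 4 to 6 for the IL-33 steps. Of 841 alternatives to the 46 called values of single genes, 783 kept call and direction, 58 lost the call and 0 reversed, and 97 alternatives to the 74 uncalled values gained a call. Over all genes tested, the count called ranged by setting from 21 to 1165 for the steady state step from I to II (620 as reported), from 245 to 1822 for III to IV (1176), from 0 to 678 for II to III under IL-33 (11) and from 3 to 41 for I to II under IL-33 (12). It ranged from 328 to 1078 for IL-33 in stage I (518), from 829 to 2168 in stage IV (1550) and from 1220 to 3267 in the joint test (2264). For the steady state step from II to III it ranged from 1965 to 4893 (4405). For stage IV, a comparison between conditions in which numbers did not pair libraries, the block is a setting and no stronger result. With 3 libraries a group, the within-group SD was over 1 log2 unit for Ltf, Lcn2, Mmp8, Camp, Fcnb and S100a8, and counting error adds to it for Mmp8 and Fcnb at their lowest levels.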
